A study of Drosophila melanogaster with 4 samples.

Results

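The comparison described here sets wing discs that expressed the Yorkie coactivator (Yki) against wing discs that expressed GFP alone, gene by gene across the transcriptome. It uses 2 of the 4 libraries of the series. Of 13990 genes in the deposited table, 7804 entered: those with a mean of at least 1 FPKM over the 4 libraries, after 316 genes of small RNAs were left out. FPKM is the number of sequenced fragments scaled to transcript length and to library depth, so levels of different genes can be set side by side. A difference is log2(FPKM + 1) in Yki minus the same in GFP, and genes at or past 1 or -1 on that scale are called 2-fold higher or lower.

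All groups were third-instar Drosophila larvae of the wandering stage, raised at 25 °C, in which engrailed-GAL4 (en) drove the transgenes and also GFP, by which larvae were sorted. The genotypes were enGFP (called GFP here), enGFP+Yki (Yki), enGFP+Yki+Tai (Yki with the ecdysone receptor coactivator Taiman, called Yki+Tai) and enGFP+Yki+Tai-IR (Yki with a construct against tai, called Yki+Tai-IR). Each genotype had 1 library, made from 4 µg of RNA of 80 to 100 pooled discs, so no genotype difference has a replicate and none can be tested. Engrailed-GAL4 is active in the posterior compartment, while the RNA came from whole discs. Each value therefore averages cells with and without the transgene, and a change in the number of cells of a kind and a change in RNA per cell cannot be told apart. Ratios are given with an exact 95% interval on the estimated number of fragments, which covers counting error only. The values of Yki+Tai and Yki+Tai-IR are given beside those of Yki and GFP, always in the order GFP, Yki, Yki+Tai and Yki+Tai-IR. Comparisons of each with GFP share that library.

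Yorkie is the coactivator at the end of the Hippo pathway. The kinases Hippo and Warts phosphorylate it and keep it out of the nucleus; without that restraint it binds DNA-binding partners, above all Scalloped, and switches on genes for growth and survival, among them genes of its own upstream inhibitors. In the wing disc, an epithelial sac that forms the wing and the notum, excess Yorkie gives overgrowth. Discs that grow abnormally signal to the brain through the relaxin-like peptide Ilp8 and so delay the pulse of the steroid ecdysone that starts metamorphosis.

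The labels were checked on the transgene and on marker genes. The yki gene itself had 71.5 FPKM in GFP discs against 5034 in Yki discs, and the other Yki libraries had 4535 and 2563. The tai gene was at 27.1, 25.0, 1260 and 22.9 FPKM, so the library labelled Yki+Tai-IR lay only slightly below the GFP and Yki libraries and its label is not checked by this gene. Group names below are those labels. The wing selector vg was at 43.95 and 53.6 FPKM in GFP and Yki, and its DNA-binding partner sd at 112 and 122. Of 39 gut genes searched, 1 passed the filter. The posterior genes en, inv and hh stood at 43.2, 39.0 and 39.8 FPKM in GFP and at 32.6, 37.2 and 37.8 in Yki. The anterior gene ci was at 128 and 81.3 FPKM, and ptc, the receptor and target of Hedgehog signalling at the compartment border, at 54.0 and 21.5. The estimated depth was 8008998 fragments for GFP, 9491165 for Yki, 12430379 for Yki+Tai and 8267664 for Yki+Tai-IR.

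Most of the transcriptome lay close to its level in GFP. The median difference over the 7804 genes was -0.004, the quartiles were -0.20 and 0.21, and 82.9% of genes were within 0.5. Yki discs had 145 genes at least 2-fold higher, 1.86% of those tested, and 236 at least 2-fold lower, 3.02%. A difference of 2 or more on the log2 scale, 4-fold, was reached by 30 genes upward and 40 downward. The typical higher gene had a low RNA level in control discs. The median of the 145 was 2.0 FPKM in GFP and 10.2 in Yki, with 10.1 and 8.94 in the other Yki libraries. The 236 lower genes had a median of 10 FPKM in GFP discs and of 2.3 with Yki, with 3.53 and 6.33 in the other Yki libraries. Both sets were chosen on the difference between Yki and GFP, so a gap between their GFP and Yki medians was fixed by the choice.

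**Figure D1:**
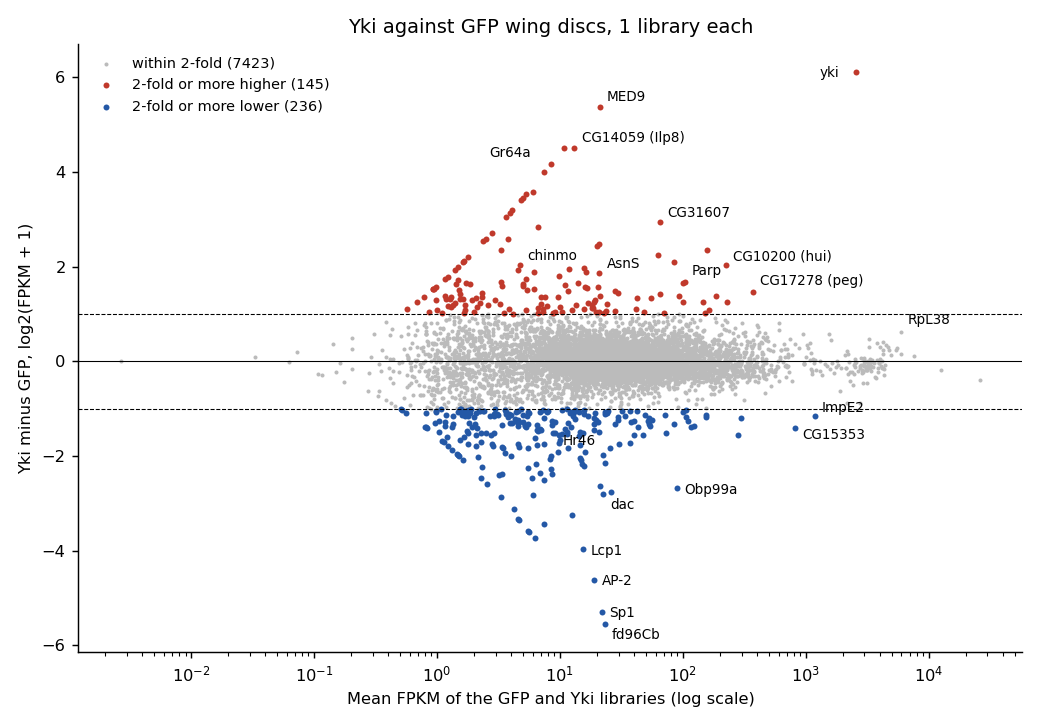
Difference between the Yki and GFP libraries, log2(FPKM + 1), against the mean FPKM of the pair on a log scale, for each of the 7804 genes tested. Dashed lines mark 2-fold; red points are the 145 higher genes, blue points the 236 lower genes and most called genes lie at low levels.

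Calls took a larger share of low and short transcripts. Among the 647 genes with a mean of 1 to 3 FPKM, 5.26% were higher and 10.4% lower. Among the 2532 genes with 30 to 100 FPKM the shares were 0.632% and 0.908%, and among the 1043 genes at 100 FPKM or above they were 1.15% and 1.05%. Of the 134 genes with a longest transcript under 500 nt, 11.2% were higher and 9.7% lower. Listed zeros were common too: 24 of the 145 higher genes were listed at 0 in GFP and 21 of the 236 lower genes at 0 in Yki. Such a 0 can be a failed estimate, since for 97 genes a 0 in 1 library goes with at least 10 FPKM in a different one, and genes listed at 0 are given no fold. Since 3 of the 4 libraries in the filter carry Yki, a gene near 0 in GFP entered only through the libraries where it was high and had to differ.

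Outside the transgene, the higher genes include several of growth control and tissue stress. The list of growth-delay and regeneration genes had 26 members that passed the filter, of which 3 were higher and 1 lower, with a median of 0.05 against -0.004 for all genes. CG14059, which encodes Ilp8, was at 0.188, 26.02, 30.9 and 9.66 FPKM. It passed the filter only through the Yki libraries, so its call is a description only. The zinc-finger gene chinmo, which marks early larval identity, was at 1.25, 8.21, 9.21 and 8.18 FPKM, a ratio of Yki to GFP of 6.55 (5.43 to 7.99). The dual oxidase maturation factor gene mol was at 2.04, 10.3, 6.59 and 9.88 FPKM. All 3 were low in GFP and above it in each Yki library.

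The called lower member was dys (dysfusion), a transcription factor gene of leg joints and trachea, at 8.13, 2.48, 2.91 and 4.59 FPKM. The other members were within 2-fold. The lectin-domain gene rgn (regeneration) stood at 82.4 FPKM in GFP and 154 in Yki, a ratio of 1.86 (1.78 to 1.95). The ATF4 gene crc, the transcription factor of the integrated stress response, was at 759 and 1125 FPKM, a ratio of 1.48 (1.45 to 1.51). The gene of the C/EBP-type factor Irbp18, listed as CG6272, was at 41.97 and 69.5 FPKM, while that of its partner Xrp1 was at 181 and 183. The cytokine genes upd2 and upd3 were each under 1 FPKM in both libraries, and Ets21C, a transcription factor induced by JNK signalling, was at 1.22 and 1.32 FPKM. Of 34 JNK and wounding genes, CG14059 and mol were the 2 called, both higher, and the median was 0.08. The limit given above for CG14059 holds here too. The TNF ligand gene egr was at 6.64 and 3.18 FPKM, whereas the gene of its receptor Grindelwald, listed as CG10176, was at 63.4 and 106 (ratio 1.66, 1.54 to 1.80). Apoptosis genes had 0 of 20 called either way and a median of 0.02.

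Known Yki targets were mostly within 2-fold. Of the 18 listed, ex and kibra were called higher and 10 lay above 0, with a median of 0.10. Beyond these, the cell-surface glypican gene dally was at 95.8, 129, 142 and 101 FPKM (ratio 1.35, 1.29 to 1.41), and the EGF-receptor ligand gene vn at 11.9, 14.7, 15.7 and 13.2. The Notch ligand gene Ser lay the other way, at 80.4, 48.0, 38.4 and 57.4 FPKM (ratio 0.597, 0.567 to 0.628).

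Amino acid metabolism held called genes on both sides. The gene asparagine-synthetase, a known ATF4 target in mammals, stood at 8.47, 33.3, 19.9 and 48.7 FPKM. The Yki to GFP ratio was 3.93 (3.19 to 4.85). CG1673, which encodes the branched-chain amino acid transaminase Bcat, was at 9.66, 23.9, 30.4 and 29.0 FPKM, so both genes were above GFP in all 3 Yki libraries. The serine synthesis genes were lower. CG6287 (phosphoglycerate dehydrogenase, its first step) was at 213, 93.4, 81.9 and 121 FPKM, and CG11899 (phosphoserine aminotransferase, the next) at 148, 64.8, 143 and 86.8. Their Yki to GFP ratios were 0.438 (0.405 to 0.474) and 0.437 (0.395 to 0.483), and both are among the most abundant of the called genes. The serine hydroxymethyltransferase gene CG3011, which makes glycine from serine, was at 127 and 108 FPKM. The glutamine synthetase gene Gs2 was at 13.9, 2.57, 0.498 and 23.4 FPKM. In a list of 32 amino acid and stress genes drawn up after these values were seen, 2 were higher and 3 lower, with a median of -0.08.

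Genes of DNA damage repair lay above 0 on balance and held a pair of called genes. Parp, the poly(ADP-ribose) polymerase gene, stood at 48.7, 158, 41.1 and 116 FPKM, a Yki to GFP ratio of 3.24 (3.03 to 3.46). It was high in Yki and Yki+Tai-IR and slightly below GFP in Yki+Tai. The DNA ligase gene lig3, whose product seals breaks, was at 7.76, 17.4, 25.2 and 22.3 FPKM. Of 34 repair genes in a list also drawn up after the values were seen, 2 were higher, 0 lower and 26 above 0, with a median of 0.25. The break-sensing gene nbs (ratio 1.52, 1.30 to 1.77) and the excision repair gene mus201 (1.54, 1.32 to 1.81) are further examples.

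The structural and cell-surface genes that were higher have diverse roles. LamC, the A-type nuclear lamin gene, was at 30.8, 79.6, 53.9 and 97.1 FPKM (ratio 2.58, 2.34 to 2.85). Esyt2, which tethers the endoplasmic reticulum to the plasma membrane, was at 5.71, 36.2, 21.3 and 42.8 FPKM, and the formin gene form3, whose product builds actin filaments, at 5.84, 25.6, 33.8 and 18.3. Each of the 3 was higher in every Yki library than in GFP. Tetraspanin genes, coding for membrane proteins with 4 spans, had 12 of 16 members above 0, a median of 0.39 and 0 calls. Tsp42Ef was at 57.8 and 112 FPKM (ratio 1.93, 1.74 to 2.14) and Tsp39D at 41.6 and 75.4. Of the 4 members below 0, Tsp42El lay lowest, at 5.07 and 2.08 FPKM (ratio 0.41, 0.215 to 0.751).

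Some immune and secreted-factor genes were also higher. TepII, a complement-like opsonin gene, was at 7.90, 25.0, 24.3 and 21.7 FPKM, and Dif, an NF-kappaB factor of the Toll pathway, at 3.49, 10.4, 16.7 and 11.2. Dif was the single higher gene among the 16 immune genes that passed the filter, and PGRP-LC, the peptidoglycan receptor of the Imd pathway, was the single lower gene, at 4.55 and 1.55 FPKM. The most abundant higher gene besides yki was CG17278 (pegasus, a secreted protein that binds Wingless), at 198, 547, 515 and 359 FPKM, with a ratio of 2.76 (2.64 to 2.88). CG10200 stood at 87.2, 357, 775 and 109 FPKM and CG31607 at 14.4, 117, 210 and 49.5. Both of these were highest in Yki+Tai and nearest to GFP in Yki+Tai-IR. CG11750 was even across the Yki libraries, at 31.5, 137, 118 and 142 FPKM.

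**Figure D2:**
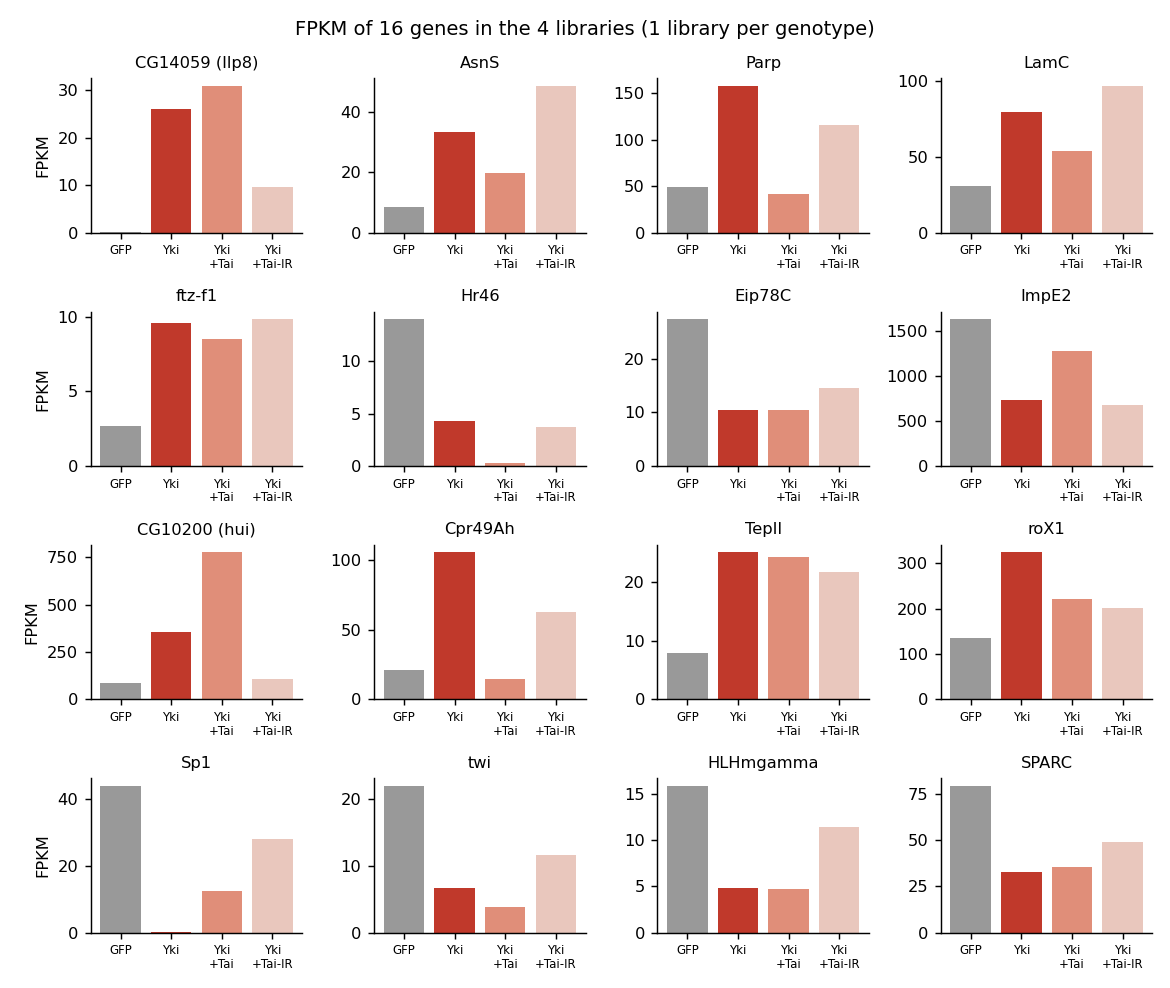
FPKM of 16 genes, chosen after their values were seen, in the 4 libraries; each bar is 1 library, with GFP in grey, and each panel has its own axis from 0. TepII and ftz-f1 stand at similar levels in all 3 Yki libraries, whereas Parp is at 158 FPKM in Yki and 41.1 in Yki+Tai against 48.7 in GFP.

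Among transcription factor genes of wing patterning, net and Poxn were called higher. The intervein gene net was at 11.4, 26.03, 18.4 and 16.7 FPKM. Poxn, which specifies poly-innervated sense organs and has a role in the hinge, was at 5.83, 14.01, 18.2 and 7.05 FPKM. Below the 2-fold call lay kn (collier, which patterns the central intervein), at 7.49, 15.03, 24.1 and 3.34 FPKM. The hinge and distal wing gene rn was at 34.8, 62.9, 58.9 and 39.0 FPKM, a ratio of 1.81 (1.69 to 1.93). Of 22 wing pouch genes, 14 lay above 0 and the median was 0.16, with 0 higher and 1 lower, while of 23 notum genes 20 lay below 0 and the median was -0.50. The Hox gene Ubx, expressed in the haltere disc and in the peripodial layer of the wing disc, was at 66.02, 121, 77.7 and 96.7 FPKM (ratio 1.83, 1.73 to 1.92). Haltere discs in the pools were not tested for.

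Of 40 germline genes, 23 passed the filter and 3 were called, all higher: piwi (0.690, 3.16, 7.06 and 1.42 FPKM) and AGO3 (2.45, 5.93, 2.56 and 3.10), both Argonaute proteins of the piRNA pathway, and bam, a germ cell differentiation factor (listed at 0 in GFP, then 1.57, 2.13 and 0.936). All 3 were under 6 FPKM in Yki, and piwi and bam, under 1 FPKM in GFP, passed the filter only through the Yki libraries, so the count is a description only. The salivary glue genes Sgs7 and Sgs8, products of another larval tissue, had a listed 0 with GFP alone and 4.77 and 3.58 FPKM with Yki. Each of these values rests on about 5 fragments in Yki against 0 in GFP, and the lower limit of the ratio is 0.773, so no difference was detectable at this depth.

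A set of 14 genes was near 0 in GFP (under 0.2 FPKM) and at 5 FPKM or more in Yki. Of these, 11 were at 2 FPKM or more in both other Yki libraries. They include CG14059, the Methuselah-like receptor gene mthl8 (0, 9.59, 8.29 and 7.34 FPKM) and the Osiris gene Osi15 (0, 5.01, 2.19 and 5.17). They also include 5 sweet-taste receptor genes, Gr64a, Gr64b, Gr64c, Gr64e and Gr64f. Gr64a stood at 0, 16.9, 18.1 and 12.6 FPKM and Gr64c at 0.0927, 12.0, 11.2 and 7.46. The whole Gr64 cluster on chromosome 3L, with Gr64d at 0, 3.25, 2.06 and 3.64 FPKM, and the adjoining gene CG11594 (0.853, 12.3, 17.0 and 11.3) formed a run of 7 neighbouring higher genes. It spans positions 4022700 to 4037575 of the dm6 build. Of 179 chemoreceptor genes 17 passed the filter, and the 6 Gr64 genes, which passed only through the Yki libraries, were the only ones among them called. The deposited values assign fragments among overlapping Gr64 transcripts: the exons of Gr64b lie wholly within those of Gr64c by the annotation, and those of Gr64d and Gr64e overlap almost wholly. The opposite set, under 0.2 FPKM in Yki and at 5 or more in GFP, held 10 genes. At least 1 FPKM was reached by 10 of these in Yki+Tai and by 9 in Yki+Tai-IR, so for 9 or more of them the other Yki libraries did not share the near-0 value. The set holds the transcription factor genes H15, Lim1, Sp1, btd, fd96Ca, fd96Cb and lbl, the cuticle gene Lcp4, and CG15250 and CG42456.

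Several of the largest differences concern genes that share exons. Of the tested genes, 174 have a share of at least 0.5 of their exonic bases inside another gene, 2.23% of all, and 21 of these were called, 12.1%, against a background of 4.88% for calls in either direction. MED9, a Mediator subunit gene, was at 0.0338, 41.9, 58.8 and 71.0 FPKM, while CG42518, within whose exons all of its own lie, on the same strand, was at 60.2, 36.7, 14.9 and 7.69. The sum of the pair was 60.3 FPKM in GFP and 78.7 in Yki, a difference of 0.38. CG32736 and CG42308 (sloth1 and sloth2, small mitochondrial proteins encoded on 1 transcript) stood at 0.00187 and 26.7 FPKM in GFP and at 14.9 and 4.93 in Yki, and their sum went from 26.7 to 19.8. CG42456 was at 12.4 and 0.00633 FPKM and its host CG12016 at 11.3 and 31.0, with a sum of 23.8 and 31.0. Of the 11 higher and 10 lower genes of this kind, the sum with the partner also passed 2-fold for 5 and 4. The 5 include Gr64b with Gr64c and Gr64d with Gr64e, pairs counted from both sides. These genes were near 0 in GFP and passed the filter only through the Yki libraries, so their sums had to differ.

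**Figure D3:**
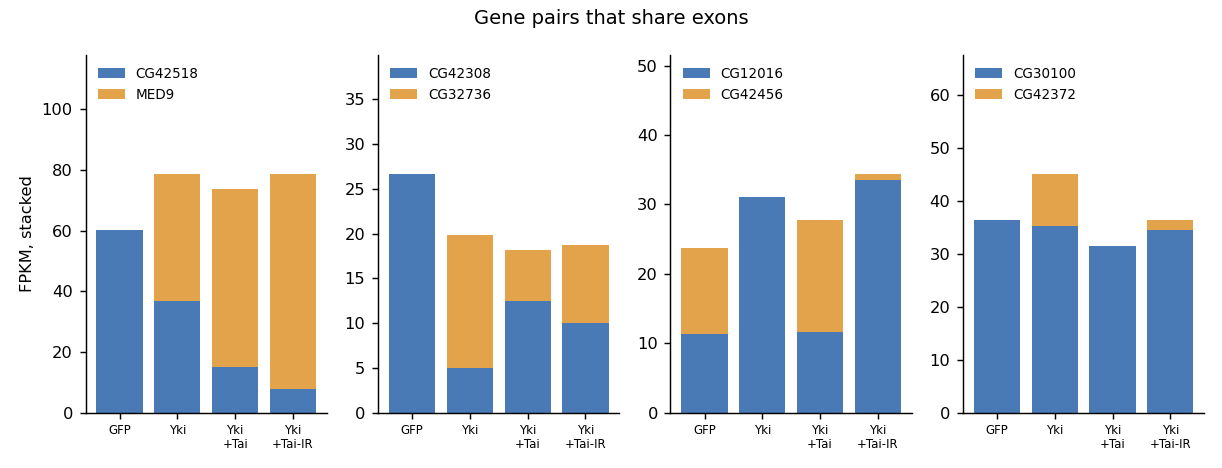
FPKM of 4 pairs of genes that share exons, stacked, in each of the 4 libraries; blue and orange are the members of a pair. The MED9 and CG42518 stack is 60.3 FPKM in GFP and 78.7 in Yki although MED9 itself goes from 0.0338 to 41.9.

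Long noncoding RNAs of dosage compensation and stress were higher. roX1 and roX2, the RNAs of the complex that raises transcription of the male X, stood at 136, 324, 222 and 202 FPKM and at 103, 270, 165 and 144. Their Yki to GFP ratios were 2.38 (2.30 to 2.46) and 2.62 (2.43 to 2.82). The complex's limiting protein gene msl-2 was at 14.8 and 19.4 FPKM. The sex of the larvae in each pool is not in the labels, and its part in the roX levels was not tested. Hsromega, a nuclear RNA induced by heat and other stress, was at 48.0, 152, 124 and 56.8 FPKM (ratio 3.17, 3.09 to 3.25).

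Differences varied by chromosome, most visibly for the small chromosome 4. Of its 62 tested genes, 53 lay above 0, or 85.5%. Their median was 0.38 and the quartiles were 0.20 and 0.48. At a mean level of at least 10 FPKM, 47 of 51 genes were above 0 and the median was 0.39. The medians of the 4 major autosomal arms lay between -0.01 and 0.02, and the X had -0.07 over 1321 genes, with 40.4% above 0. Against GFP, the chromosome 4 median of Yki+Tai was -0.18 and that of Yki+Tai-IR 0.06.

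Ratios on chromosome 4 differed among its abundant genes. The ribosomal protein gene RpS3A was at 3677, 4895, 3647 and 4928 FPKM (Yki to GFP ratio 1.33, 1.31 to 1.35), and the translation initiation factor gene eIF4G at 167, 216, 116 and 163 (1.29, 1.26 to 1.33). The Polycomb-group gene pho was at 77.7, 133, 80.3 and 108 FPKM (1.71, 1.60 to 1.82). The gene pncr013:4, annotated as the protein-coding gene CG33941, was at 52.0, 136, 55.9 and 98.0 FPKM (2.61, 2.32 to 2.95). The ratio was 2.04 (1.95 to 2.14) for CG33978 and 2.01 (1.94 to 2.09) for unc-13, a gene of synaptic vesicle priming. Caps, at 11.1 and 4.82 FPKM, and ci lay the other way. Of the 62 genes, 2 were called higher and 1 lower. High levels in Yki and Yki+Tai-IR with Yki+Tai near GFP, as for pho and pncr013:4, were not confined to chromosome 4. On 2R, RpL38 was at 4659, 7187, 4331 and 7593 FPKM, and on 3L mRpS5 was at 97.2, 178, 93.3 and 150. Genes elsewhere with this pattern were not counted. Copy number of chromosome 4 in the stocks is not in the labels, and its part was not tested.

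**Figure D4:**
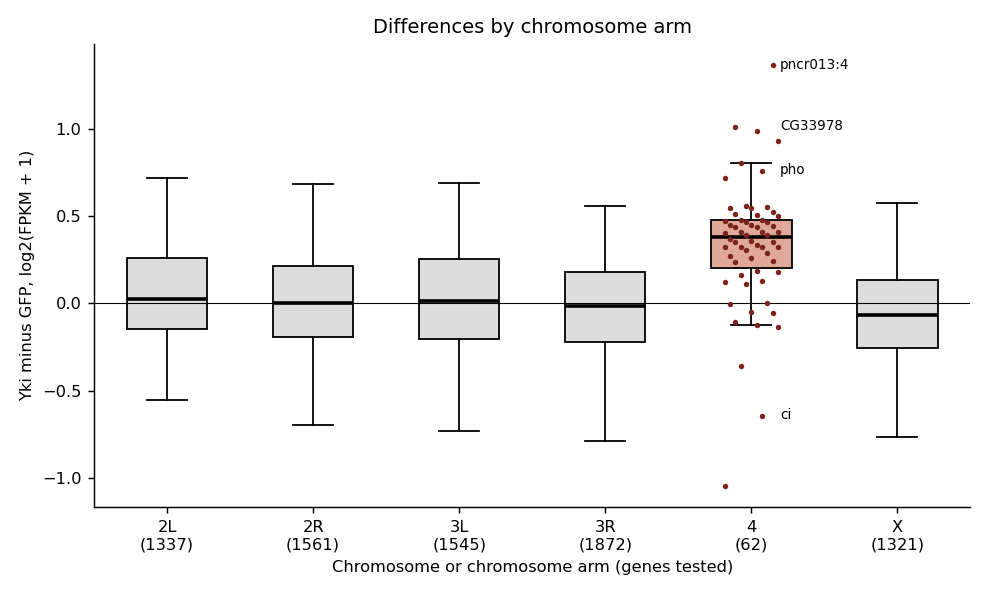
Yki minus GFP, log2(FPKM + 1), for tested genes by chromosome arm (number of genes in brackets). Boxes show the median and quartiles, whiskers the 5th and 95th percentiles, and points the 62 genes of chromosome 4, whose median is 0.38 while the other medians lie between -0.07 and 0.02.

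Genes of the ecdysone response were lower on balance. Of 43 tested, 9 were at least 2-fold lower and 2 higher, and the median was -0.12. The early and delayed-early nuclear receptor genes Hr46 (Hr3), Hr4 and Eip78C, which relay the hormone pulse, were at 14.03, 16.9 and 27.3 FPKM in GFP and at 4.28, 6.27 and 10.4 in Yki. Their ratios were 0.305 (0.268 to 0.348), 0.372 (0.340 to 0.405) and 0.379 (0.340 to 0.422). In Yki+Tai they were at 0.236, 1.53 and 10.4 FPKM, and in Yki+Tai-IR at 3.76, 4.75 and 14.5, so each was below GFP in all 3 Yki libraries.

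Among the called members of the list were ecdysone-inducible disc genes, named here after their values were seen. ImpE2, a secreted apical protein gene of discs, was among the most abundant called genes, at 1636, 736, 1286 and 677 FPKM (ratio 0.450, 0.439 to 0.461). ImpE1 was at 122 and 47.7 FPKM, ImpE3 at 57.3 and 27.0, and the pupal cuticle gene Edg91 at 9.76 and 1.25. The opposite pair was ftz-f1, a receptor gene of the prepupal competence period, at 2.69, 9.62, 8.53 and 9.86 FPKM (ratio 3.57, 2.94 to 4.38), and Cyp18a1, whose enzyme inactivates ecdysteroids, at 2.34, 8.43, 23.2 and 5.22. The receptor genes EcR (35.2 and 42.9 FPKM) and usp (36.2 and 30.04) and the early genes br (315 and 216) and Eip75B (48.4 and 30.8) were within 2-fold, as was Blimp-1 (17.0 and 9.75), a repressor gene that times ftz-f1. The inducible gene ImpL3, which encodes lactate dehydrogenase, lay slightly the other way at 9.63 and 12.0 FPKM (ratio 1.25, 0.986 to 1.59). Whether the pools were of equal age was not tested.

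Genes that pattern legs made up the list with the most lower genes. Of 25 leg and ventral-appendage genes in the deposited data, 23 passed the filter, and 15 of them were lower, 0 higher, with a median of -1.45. The forkhead genes fd96Ca and fd96Cb stood at 11.2 and 46.2 FPKM in GFP, were listed at 0 in Yki, and were at 2.54 and 11.6 in Yki+Tai and 7.12 and 51.0 in Yki+Tai-IR. The leg-growth gene Sp1 was at 43.9, 0.144, 12.4 and 27.9 FPKM, the joint gene AP-2 at 37.6, 0.569, 4.83 and 23.6, and the distal leg gene Lim1 at 8.35, 0.0726, 1.94 and 7.30. Yki was the lowest of the 4 libraries for each. Genes used in both legs and wings varied. Dll, the distal appendage selector, was at 68.2 and 35.0 FPKM in GFP and Yki, and hth, a proximal selector, at 159 and 217. By contrast dac, also listed as a wing hinge gene, was at 40.2 and 4.9 FPKM (ratio 0.122, 0.105 to 0.14). The summed level of the whole list was 919 FPKM in GFP and 587 in Yki, and 474 and 802 in Yki+Tai and Yki+Tai-IR. Over the 23 genes the median ratio to GFP was 0.289 for Yki, 0.283 for Yki+Tai and 0.727 for Yki+Tai-IR.

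Some other patterning genes outside the list were low in Yki. The T-box neighbours H15 and mid, which specify ventral leg fate, were at 9.20 and 12.1 FPKM in GFP and at 0 and 1.54 in Yki. The Hox gene Scr, active in the prothoracic and labial segments, was at 3.03, 0, 0.611 and 3.50 FPKM. Leg tissue in the GFP pool and leg-gene transcription in wing discs cannot be told apart in these data.

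Markers of the myoblasts that lie beneath the disc epithelium lay mostly below 0. Of 23 tested, 9 were lower, 0 higher and 21 below 0, and the median was -0.69. The mesodermal factor gene twi was at 22.0, 6.73, 3.81 and 11.7 FPKM, the fusion receptor gene hbs at 22.97, 5.998, 5.67 and 11.1, and the FGF signalling adaptor gene stumps at 21.7, 9.51, 5.78 and 13.5. The homeobox gene lbl was at 11.02 FPKM in GFP and listed at 0 in Yki. Mef2, the muscle differentiation factor, differed less (19.8 and 14.6 FPKM). The list summed to 834 FPKM in GFP and 646 in Yki. Muscle genes had 7 of 19 lower, 0 higher and a median of -0.69, among them the actin genes Act57B (15.2 and 4.53 FPKM) and Act87E (17.2 and 5.46) and the troponin gene up (4.87 and 0.754). Of the muscle list, 2 genes were listed at 0 in GFP and 7 in Yki, and Mhc, the defining myosin gene, was under the filter at 0.440 and 0.257 FPKM.

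Hemocyte markers had 3 of 19 lower and 1 higher, and their sum was 825 and 635 FPKM. The defining genes Hml (0.842 and 0.467) and nimC1 (0.539 and 0.341) were under 1 FPKM in both libraries. The part of these other cell types in the remaining differences was not tested. With the leg, myoblast, muscle, hemocyte, fat body and heat shock lists left out, 7677 of the 7804 tested genes remained. Of these, 142 were higher and 196 lower. The lists hold 40 of the 236 lower genes, 16.9%, a larger share than they hold of all tested genes. They were chosen with earlier results of these data known, so this share is a description only.

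**Figure D5:**
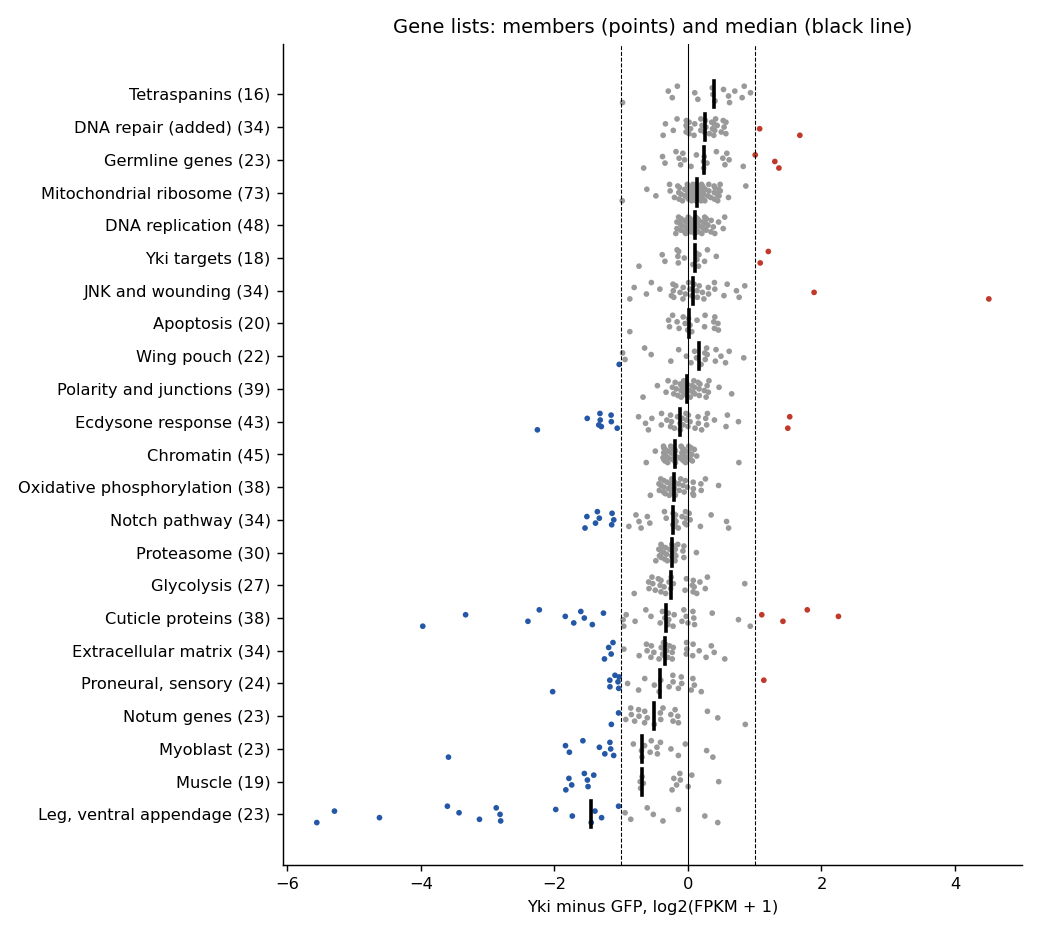
Yki minus GFP, log2(FPKM + 1), for the tested members of 23 gene lists (number in brackets), with the median of each as a black line; red and blue points are members past 2-fold. Leg genes have the lowest median, -1.45, while proteasome and DNA replication genes cluster tightly on opposite sides of 0.

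Lower calls in Notch signalling came from a single locus. Of 34 Notch-pathway genes 8 were lower and 0 higher, all 8 of them in the Enhancer of split complex. This locus holds genes that Notch switches on, among them repressors. In chromosomal order HLHmdelta, HLHmgamma, HLHmbeta, malpha, m2 and HLHm3 were each called and formed the longest run of lower neighbours. The 11 genes of the complex summed to 831, 360, 434 and 566 FPKM. The receptor gene N was at 91.7 and 78.3 FPKM and the ligand gene Dl at 44.8 and 40.4. Of 24 proneural and sensory genes 7 were lower and 1, Poxn, was higher. The proneural gene ato, which founds chordotonal organs and photoreceptors, was at 4.08, 0.246, 0.813 and 2.63 FPKM.

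Some called genes were neighbours. Of 231 lower genes with a known position 52 stood next to another lower gene, 22.5%, and of 141 higher genes 18 stood next to another higher gene, 12.8%. Of all 7698 tested genes with a position, 5.73% stood next to a lower gene and 3.51% next to a higher one. The Gr64 run makes up 7 of the 18. Some of its members share exons, and its Gr64 genes passed the filter only through the Yki libraries. Sgs7, Sgs8 and CG10205, also among the 18, were listed at 0 in GFP and entered in the same way. The share of higher genes with a higher neighbour is therefore a description only. Besides the runs above, ex lay beside BBS8, a gene of ciliary transport, and CG13692 in a run of 3 higher genes at positions 421771 to 448701 of chromosome 2L. Their levels were 104 and 222 FPKM for ex, 3.86 and 15.9 for BBS8, and 6.36 and 26.3 for CG13692. In the libraries with Tai and with Tai-IR, BBS8 stood at 23.9 and 7.48 FPKM, ex at 349 and 143, and CG13692 at 9.72 and 14.9. The net gene lay next to CG11374 (0.503 and 2.76 FPKM), and CG10200 next to CG10205 (0 and 1.89).

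Cuticle protein genes split. Of 38 tested, 10 were lower and 4 higher, with a median of -0.32, and 83 of the 121 in the table did not pass the filter. The larval cuticle genes Lcp1, Lcp2, Lcp3 and Lcp4 were a run of neighbours on chromosome 2R, with Lcp1 at 29.96, 0.972, 5.45 and 4.47 FPKM. Of the higher members, Cpr49Ah was at 21.3, 105, 14.5 and 62.6 FPKM, and Cpr51A was at 34.7, 94.7, 413 and 33.9. These genes did not share a pattern across the Yki libraries.

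Genes of the extracellular matrix lay mostly below 0, 27 of 34, with a median of -0.35, 4 lower and 0 higher. SPARC, listed as BM-40-SPARC, is a collagen-binding glycoprotein gene and stood at 79.5, 32.8, 35.5 and 49.2 FPKM (ratio 0.413, 0.358 to 0.476). The collagen IV genes Cg25C and vkg were at 20.0 and 13.04 FPKM in GFP and at 11.6 and 8.18 in Yki. Fat body and hemocytes are the known main sources of both collagen chains.

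Among signalling genes, few ligands and receptors were called. The EGF-receptor pathway had rho, the protease that releases its ligand, at 9.72, 3.19, 2.54 and 8.30 FPKM and the nuclear effector pnt at 16.9, 7.51, 6.72 and 11.9 as its 2 lower genes of 27, and rl, the MAP kinase gene, at 89.7 and 142. In the Dpp and activin list the activin-like ligand gene daw was at 4.63, 0.920, 8.49 and 1.88 FPKM and the BMP-binding gene cv-2 at 19.5, 8.79, 13.6 and 9.34; the other 27 of 29 were within 2-fold. Of 32 Wnt-pathway genes Wnt2 (40.6, 10.7, 23.8 and 20.7 FPKM) and sens were lower. The JAK-STAT list had chinmo as its single called gene of 15, and the 39 polarity and junction genes had 0. In the insulin and TOR list of 32, the single called gene was CG14059, which passed the filter only through the Yki libraries.

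In several large housekeeping sets most members lay on the same side of 0, by well under 2-fold. Proteasome subunit genes lay below 0 in 29 of 30 cases, with a median of -0.24; Pros29 was at 293 and 210 FPKM (ratio 0.715, 0.668 to 0.766). Oxidative phosphorylation genes were below 0 in 30 of 38, median -0.21, and glycolytic genes in 18 of 27, median -0.26, with Tpi at 182 and 104 FPKM (ratio 0.570, 0.529 to 0.615). Chromatin genes were below 0 in 36 of 45, median -0.19. On the other side, mitochondrial ribosomal protein genes were above 0 in 56 of 73 (median 0.13), DNA replication genes in 34 of 48 (median 0.11) and mitosis and spindle genes in 38 of 57 (median 0.08). Cytosolic ribosomal protein genes were below 0 in 59 of 86 (median -0.09). The median of all genes was -0.004, and these lists had 0 calls apart from 1 higher among the mitosis genes.

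Heat shock genes, which respond to many kinds of stress, had 4 of 25 lower and 2 higher, one of them Hsromega. The small heat shock gene Hsp26 was at 421, 143, 585 and 1064 FPKM and Hsp68 at 22.0, 7.17, 178 and 335. Hsp70Bbb stood at 51.2, 264, 277 and 205.5 FPKM, but its near-identical copies make the split of fragments among Hsp70 genes uncertain. Of the most abundant lower genes, CG15353 was at 1197, 449, 73.4 and 1312 FPKM. Among the 25 lowest differences was Obp99a, a gene of an odorant-binding protein, at 157, 23.5, 17.6 and 91.5 FPKM (ratio 0.150, 0.118 to 0.187).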

How the data were processed

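Per the labels' protocols, RNA of pooled discs was depleted of ribosomal RNA and made into TruSeq version 2 libraries. The kit does not mark strand, so overlapping and antisense genes cannot be told apart. The authors deposited FPKM values per gene, unreplicated. Per the submitters' processing notes, the tools were TopHat2 (2.0.12), CASAVA (1.4) and Cuffdiff (2.2.1), with dm6 as the build. The sources used here do not give options or annotation.

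Depth was estimated from the steps between low FPKM values after subtracting 210 nt from transcript length. Depths were searched for the largest share of values within 0.08 of a whole fragment number, which was between 74.3% and 78.3%. The 16.0% given by chance is for a depth fixed in advance, so it is not a like comparison for a search. Ratios carry exact Clopper-Pearson intervals. On a 2 kb transcript 3 fragments equal 0.209 FPKM in GFP and 0.177 in Yki. Gene symbols were matched to the Ensembl annotation of BDGP6 (dm6 coordinates): 13737 matched, 3208 of them through older symbols, and 253 did not. No test was possible. Named genes were the 25 highest and 25 lowest, the most abundant called genes, up to 4 per list, neighbour runs and listed zeros; others were chosen after their values were seen. Members and lists were chosen with earlier results of these data known. Values were computed in Python 3.11.15 with pandas 2.3.3, numpy 2.4.6 and scipy 1.17.1 and drawn with matplotlib 3.10.9.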

Additional observations from a re-analysis of the deposited data

How the results depend on the processing

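With a pseudocount of 0.1 in place of 1, 235 genes were higher and 344 lower; with 5, 58 and 94. A stricter filter, a mean of at least 5 FPKM, left 92 higher and 127 lower. The other settings tried kept both counts within 1.5 times, with 108 to 163 genes higher and 174 to 301 lower. The widest lower count, 301, came with small-RNA genes kept. Leaving out genes that share 0.5 or more of their exonic bases with another gene, an alternative chosen after seeing the data, gave 134 and 226. Rescaling by the median ratio or to equal FPKM sums moved the median of all genes from -0.004 to 0.000 and 0.014. The sign of a called difference could not change under the 2 other pseudocounts, since a pseudocount leaves the sign as it is. Nor could it under the 2 rescalings, whose factors were 0.997 and 0.987. Signs are therefore no check of the calls. No paired analysis was possible because each genotype had 1 library. For the same reason no library could be left out in turn. Depth limits the low genes, and most calls had a mean under 10 FPKM over the 4 libraries. With genes under 50 fragments left out, 108 higher and 174 lower genes remained.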
